A study of Mus musculus with 12 samples.

Results

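A set of 9 genes of zinc handling was followed in the mid-colon of mice given dextran sulfate sodium (DSS), which damages the lining of the colon and so brings on colitis. They were taken by symbol: the metallothioneins Mt1 and Mt2, the zinc-sensing factor Mtf1, the exporters Slc30a1 and Slc30a10, and the importers Slc39a4, Slc39a5, Slc39a8 and Slc39a14. All 9 were found among the 25904 gene symbols measured, and all 9 were among the 15246 that passed the filter of at least 1 CPM (read counts of a gene scaled to a common total) in at least 3 libraries. The samples were 12 RNA sequencing libraries of whole colon tissue, 3 from each of days 0, 2, 4 and 6 of exposure to 3% DSS, from mice 7 weeks old kept free of specific pathogens. Strain, sex and genotype are not stated in the labels, and the labels put no library of water-drinking mice at days 2, 4 and 6. Day 0 was therefore the only reference, so that DSS, the day of harvest and age cannot be told apart. The labels do not state whether the 3 libraries of a day are 3 animals, and each p-value therefore rests on a spread between libraries that may be technical.

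Zinc is held in narrow limits inside cells. Metallothioneins are small cysteine-rich proteins that bind zinc and copper, and the transcription factor MTF1 turns on their genes, and that of the exporter ZnT1 (Slc30a1), when free zinc rises. Proteins of the SLC30 family (ZnT) move metal out of the cytosol, and proteins of the SLC39 family (ZIP) move it in. In the gut ZIP4 (Slc39a4) is the main route of dietary zinc uptake, and in the liver ZIP14 (Slc39a14) is induced by interleukin 6 during inflammation, together with the metallothioneins.

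In outline, Mt2 rose from day 0 to day 4 and again to day 6, and Mt1 rose between days 4 and 6 after days on which no change passed the test. Slc39a14 was higher at day 6 than at day 0, and Mtf1 was higher at days 4 and 6. Slc39a5, Slc39a8 and Slc30a10 were lower at days 4 and 6. Slc39a4, the uptake transporter of dietary zinc, showed no change past the test on any day.

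The metallothionein genes lie in a cluster on mouse chromosome 8 (GRCm38, the build named mm10), in the order Mt4, Mt3, Mt2, Mt1, all on the plus strand. Mt2 spans chr8:94172664-94173568 and Mt1 spans chr8:94179082-94180327, with 5513 bases between them. An antisense gene, Gm45774, overlaps Mt2 on the opposite strand. The longest run of bases that the principal transcripts of Mt1 (549 bases) and Mt2 (511 bases) share is 20 bases, far below the 150-base reads. Metal response elements are the short DNA motif that MTF1 binds. The windows around the RefSeq start sites (GRCm38.p6, 250 bases before to 50 after) of both genes, and of Slc30a1 as the other classical MTF1 target, are shown 5′ to 3′ because they hold several copies. Capitals mark matches to TGCACNC or TGCGCNC on either strand.
Mt1: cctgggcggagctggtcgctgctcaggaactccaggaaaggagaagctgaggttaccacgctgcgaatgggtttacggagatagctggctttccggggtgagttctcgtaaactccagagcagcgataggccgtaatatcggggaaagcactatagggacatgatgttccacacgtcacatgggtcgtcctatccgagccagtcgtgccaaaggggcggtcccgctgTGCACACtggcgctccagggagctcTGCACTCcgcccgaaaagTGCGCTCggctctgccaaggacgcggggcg
Mt2: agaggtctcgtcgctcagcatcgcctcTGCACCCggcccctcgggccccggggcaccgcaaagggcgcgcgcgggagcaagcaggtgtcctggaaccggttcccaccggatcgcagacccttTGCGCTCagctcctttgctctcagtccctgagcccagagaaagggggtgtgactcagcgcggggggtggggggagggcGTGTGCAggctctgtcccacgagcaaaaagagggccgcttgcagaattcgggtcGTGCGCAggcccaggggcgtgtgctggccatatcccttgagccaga
Slc30a1: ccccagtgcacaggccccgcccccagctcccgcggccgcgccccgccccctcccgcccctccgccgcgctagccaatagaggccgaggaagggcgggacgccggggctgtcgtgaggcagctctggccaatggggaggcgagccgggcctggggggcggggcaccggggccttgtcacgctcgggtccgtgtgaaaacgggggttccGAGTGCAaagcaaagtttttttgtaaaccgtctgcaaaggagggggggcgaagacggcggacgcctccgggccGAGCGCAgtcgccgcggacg

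The Mt1 window (chr8:94178839-94179138, plus strand) holds 3 matches, at -23, 3 and 21 from the RefSeq start site. The Mt2 window (chr8:94172368-94172667, plus strand) holds 4, at -223, -128, -50 and 5, and the Slc30a1 window (chr1:191906531-191906830, plus strand) holds 2, at -43 and 31. Of the 32851 windows of all genes in the table, 25.7% hold at least 1 match, 7.11% at least 2 and 1.97% at least 3. The Slc30a10 window holds 3 matches, of which 2 overlap each other. The other members with windows were Mtf1 with no match, and Slc39a5 and Slc39a8 with 2 windows each, of which 1 in each gene holds a single match. No window was used for Slc39a4 and Slc39a14, so 7 of the 9 members had one. The motif TTCNNNGAA, bound by STAT factors, was in none of the members' 9 windows and in 8.3% of all windows. The antioxidant core TGACNNNGC was in 12.4% of all windows and in 4 of the 9, among them that of Mt2 at -79 and that of Slc30a1 at -82. A match describes letters only and says nothing of binding.

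Libraries held 31058911 to 41011005 reads. Across genes, the log2 values of libraries from the same day correlated at 0.966 or above on days 0, 2 and 4, and at 0.914 to 0.978 on day 6, whose libraries were the least alike. Against the tissue label, the epithelial genes Krt8 and Epcam and the colonocyte gene Car1 were at or above 491 CPM in every library. Other listed markers of colon epithelium and absorptive colonocytes ranged widely in their lowest libraries. Krt19 was at 910 CPM there, but Fxyd3 was at 1.20, Cyp2c55 at 14.5, Phgr1 at 22.8 and Aqp8 at 38.9 CPM. Of the 12 markers listed for the small intestine, 6 passed the filter, and the list summed to 227 to 332 CPM at day 0, most of it from Fabp2 (219 CPM on average), Apob (40.4) and Alpi (25.1), while Lct reached at most 0.505 CPM and Rbp2 was listed at 0 in every library. The median gene moved by 0.13 at day 4 and 0.14 at day 6 against day 0 on the log2(CPM + 1) scale, so all changes below are to be read relative to that shift. Of the genes called changed at day 4 against day 0, 63.8% were higher with CPM as deposited, but 50.6% with median-of-ratios scaling and 46.9% with quantile normalization. At day 6 the corresponding shares were 65.5%, 51.4% and 46.5%, and at day 4 against day 2 they were 61.9%, 53.3% and 48.6%.

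**Figure D1:**
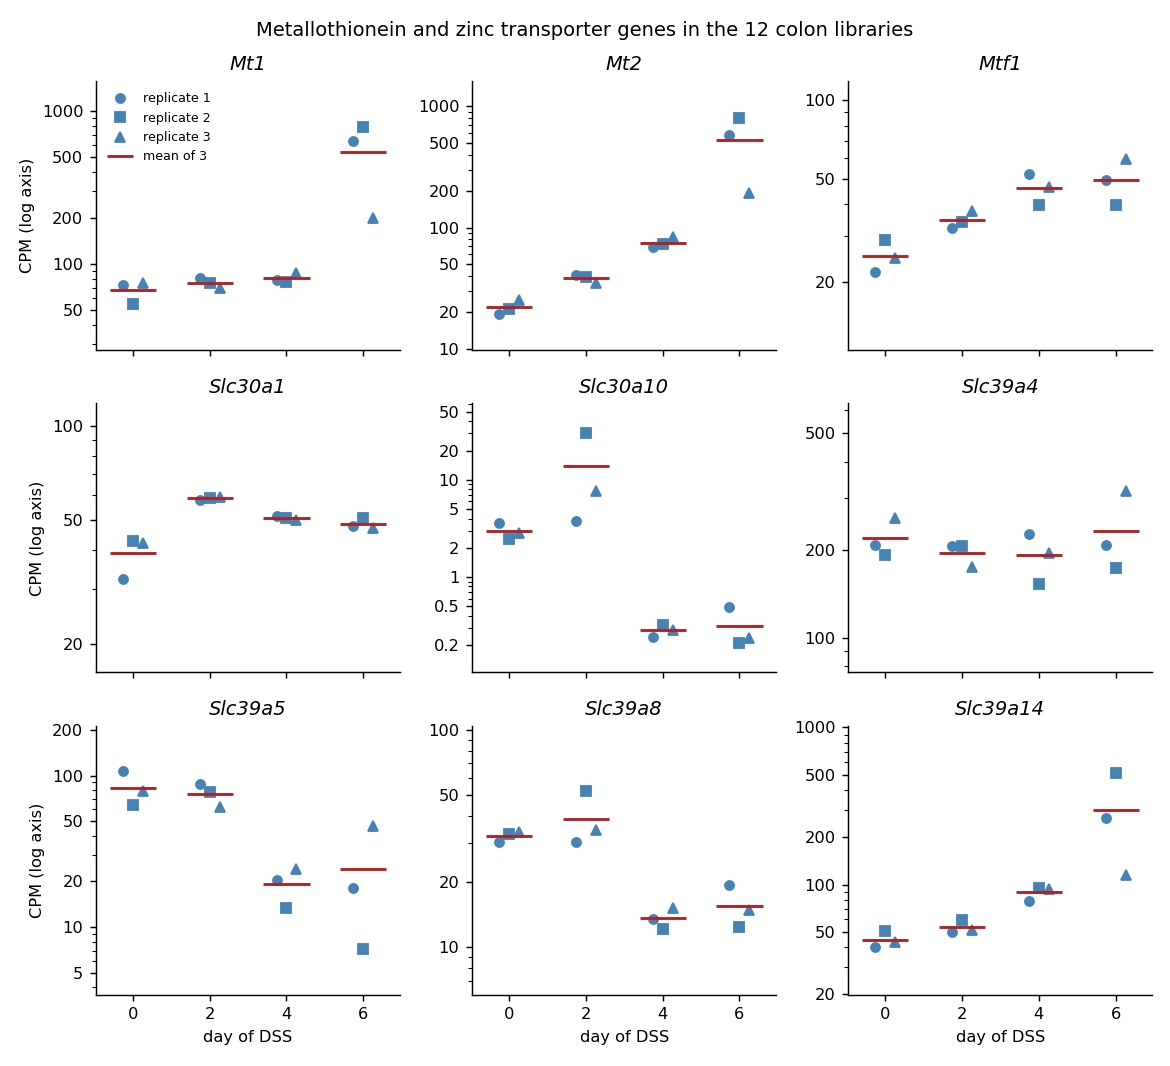
CPM of the 9 genes in each library by day of DSS, on log axes that differ between panels, with red lines at the mean of 3 libraries. Mt2 steps up from day to day, Mt1 is at most 87.6 CPM before day 6, and Slc30a10, Slc39a5 and Slc39a8 are low at days 4 and 6.

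Mt2 was measured at 19.5, 21.2 and 25.5 CPM in the 3 day 0 libraries and at 40.9, 39.2 and 35.1 CPM at day 2. At day 4 it stood at 68.9, 72.6 and 83.6 CPM, and at day 6 at 575, 808 and 194 CPM. No 2 days overlapped. The day means were 22.1 ± 3.09, 38.4 ± 2.99, 75.0 ± 7.66 and 526 ± 310 CPM (SD, n = 3), or 1.74, 3.40 and 23.8 times day 0 at days 2, 4 and 6. On the log2(CPM + 1) scale in limma the difference from day 0 was 0.78 ± 0.39 (SE) at day 2 (adjusted p = 0.369), 1.72 ± 0.39 at day 4 (adjusted p = 0.0059) and 4.29 ± 0.39 at day 6 (adjusted p = 1.04e-05). This SE is shared by the 4 days of the fit, of which day 6 had the largest SD. In a fit of the day 0 and day 2 libraries alone the day 2 difference passed the test (adjusted p = 0.0344). From day 4 to day 6 Mt2 rose by a further 2.57 ± 0.39 (adjusted p = 0.00707), a call that was lost when only those 6 libraries entered the fit (adjusted p = 0.138). The step from day 2 to day 4, 0.95 ± 0.39, missed the threshold (adjusted p = 0.0834) and passed it without day 6 replicate 2 (adjusted p = 0.0241) and without day 6 replicate 3 (adjusted p = 0.000674). That step also passed in a fit of the day 2 and day 4 libraries alone (adjusted p = 0.000192) and with DESeq2 (adjusted p = 0.0417).

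Mt1, the neighbouring gene for a near relative of the same protein, followed a different course. Its levels were 73.7, 55.1 and 75.5 CPM at day 0, 81.3, 75.9 and 69.5 CPM at day 2, and 78.3, 76.9 and 87.6 CPM at day 4. At day 6 they were 640, 782 and 201 CPM, all above every earlier library. The day 4 libraries were all above those of day 0, and those of day 2 overlapped both. The means were 68.1 ± 11.3, 75.6 ± 5.88, 80.9 ± 5.80 and 541 ± 303 CPM (SD, n = 3). The limma difference from day 0 was 0.16 ± 0.39 at day 2 (adjusted p = 0.851), 0.26 ± 0.39 at day 4 (adjusted p = 0.636) and 2.77 ± 0.39 at day 6 (adjusted p = 0.000244), where the mean was 7.95 times that of day 0. The rise from day 4 to day 6 was 2.51 ± 0.39 (adjusted p = 0.00739), and this call too was lost in a fit of those 6 libraries alone (adjusted p = 0.138).

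Because both genes are read in the same library, the ratio of Mt2 to Mt1 does not depend on how libraries are scaled. It was a measure chosen after the values were seen. The ratio was 0.265, 0.385 and 0.338 at day 0, 0.503, 0.517 and 0.505 at day 2, 0.879, 0.944 and 0.955 at day 4, and 0.898, 1.03 and 0.963 at day 6. Every library of days 2, 4 and 6 was above every day 0 library, and days 4 and 6 overlapped. The means were 0.329 ± 0.0605, 0.508 ± 0.00738, 0.926 ± 0.0407 and 0.965 ± 0.0677 (SD, n = 3). The exact two-sided permutation test gave p = 0.1 for each of days 2, 4 and 6 against day 0 (n = 3 each), the smallest that 3 against 3 allows. Summed, Mt1 and Mt2 came to 90.2 ± 12.7, 114 ± 8.83, 156 ± 13.2 and 1067 ± 611 CPM over the 4 days.

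**Figure D2:**
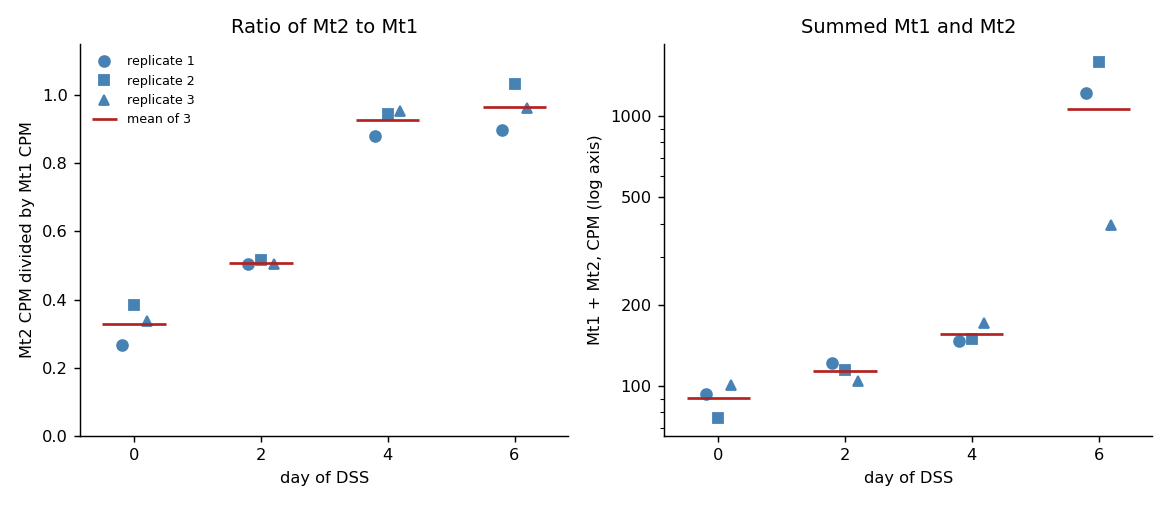
Left, Mt2 CPM divided by Mt1 CPM in each library by day; right, the sum of both on a log axis, with red lines at the mean of 3 libraries. The ratio goes from a mean of 0.329 to 0.926 by day 4 while the sum stays under 172 CPM, and the sum is 395 to 1590 CPM at day 6.

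Mtf1 (chr4:124802104-124849800, plus strand), which encodes the zinc-sensing activator of the metallothionein genes, had levels of 21.9, 29.0 and 24.9 CPM at day 0 and 32.5, 33.9 and 37.4 CPM at day 2. It was at 52.2, 39.8 and 46.4 CPM at day 4 and at 49.4, 39.5 and 59.3 CPM at day 6. The later libraries all lay above those of day 0, and days 4 and 6 overlapped. Mtf1 was 0.84 ± 0.17 higher at day 4 (adjusted p = 0.0028) and 0.93 ± 0.17 higher at day 6 (adjusted p = 0.00136) on the log2 scale in limma, and at day 2 the difference was 0.44 ± 0.17 (adjusted p = 0.272). The day 6 mean of 49.4 ± 9.91 CPM was 1.95 times the day 0 mean of 25.3 ± 3.56 CPM.

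Slc30a1 (chr1:191906767-191913247, plus strand) encodes ZnT1, the zinc exporter of the plasma membrane and itself an MTF1 target. It was at 32.3, 42.8 and 42.0 CPM at day 0, at 58.0, 58.6 and 59.1 CPM at day 2, at 51.2, 50.7 and 49.8 CPM at day 4 and at 47.8, 50.8 and 47.2 CPM at day 6. All 9 later libraries were above all 3 of day 0, and the day 2 libraries were the highest. The difference from day 0 was 0.58 ± 0.12 at day 2 (adjusted p = 0.0781), 0.38 ± 0.12 at day 4 (adjusted p = 0.0292) and 0.32 ± 0.12 at day 6 (adjusted p = 0.0535) in limma. The day 4 call was lost in 9 of 23 alternatives, among them median-of-ratios scaling (adjusted p = 0.145), quantile normalization (0.185), edgeR (0.161) and DESeq2 (0.122), and the fits without day 0 replicate 1 (0.0691) or without day 4 replicate 1 (0.0809), 2 (0.0802) or 3 (0.0719). At day 2, DESeq2 called it higher (adjusted p = 0.00172), as did limma without day 6 replicate 2 (adjusted p = 0.0211).

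Slc30a10 (chr1:185454848-185468762, plus strand) belongs to the zinc exporter family but is known as an exporter of manganese. Its levels were 3.58, 2.49 and 2.81 CPM at day 0 and 3.80, 30.6 and 7.61 CPM at day 2. They were 0.241, 0.322 and 0.286 CPM at day 4 and 0.488, 0.209 and 0.238 CPM at day 6, which rested on 30 and 37 reads summed over the 3 libraries of each day, against 320 at day 0. All 6 libraries of days 4 and 6 were below all 6 of days 0 and 2, and day 2 replicate 2 stood far above the other day 2 libraries. The day 0 mean was 10.5 times the day 4 mean and 9.50 times the day 6 mean, which the log2(CPM + 1) scale understates: limma gave -1.62 ± 0.50 at day 4 (adjusted p = 0.0286) and -1.59 ± 0.50 at day 6 (adjusted p = 0.029). Both calls were lost with a pseudocount of 5 (adjusted p = 0.246 and 0.243). They were lost as well without any 1 of the day 0 libraries, with adjusted p between 0.0511 and 0.0883 at day 4 and between 0.0514 and 0.089 at day 6. At day 4 the call was also lost without replicate 1 (0.0712), 2 (0.0676) or 3 (0.0705) of that day, and at day 6 without replicate 1 (0.0591) or 2 (0.0564). edgeR on the recovered reads gave -3.52 (adjusted p = 0.00334) and -3.40 (adjusted p = 0.00316). From day 2 to day 4 the fall was -3.09 ± 0.50 (adjusted p = 0.000761), and without day 2 replicate 2 it was -2.33 (adjusted p = 0.000133), without day 2 replicate 1 -3.68 (adjusted p = 0.000195).

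Slc39a4 (chr15:76612383-76617384, minus strand) encodes ZIP4, the apical importer whose loss in humans causes the zinc deficiency disease acrodermatitis enteropathica. It was at 207, 192 and 257 CPM at day 0, at 206, 206 and 175 CPM at day 2, at 227, 152 and 195 CPM at day 4 and at 208, 173 and 317 CPM at day 6. The days overlapped throughout. The limma differences from day 0 were -0.15, -0.20 and 0.05 at days 2, 4 and 6, each ± 0.22 (adjusted p = 0.746, 0.522 and 0.869), and the sign at day 6 turned under median-of-ratios scaling and quantile normalization. It was the 1 member that did not pass the F test over the 4 days (adjusted p = 0.683).

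Slc39a5 (chr10:128395931-128401229, minus strand) encodes ZIP5, which in mouse enterocytes sits on the basolateral side and takes up zinc from the blood. It was at 107, 63.9 and 79.0 CPM at day 0 and at 88.2, 77.6 and 62.3 CPM at day 2. At day 4 it stood at 20.6, 13.3 and 24.0 CPM, and at day 6 at 18.1, 7.15 and 46.7 CPM. All 6 libraries of days 4 and 6 were below all 6 of days 0 and 2, and at day 6 the libraries were far apart. Slc39a5 fell by 2.06 ± 0.49 on the log2 scale at day 4 (adjusted p = 0.00832) and by 2.08 ± 0.49 at day 6 (adjusted p = 0.00727) in limma, the day 0 mean being 4.31 and 3.46 times those means. The day 6 value was -1.45 without day 6 replicate 2 and -2.72 without day 6 replicate 3, and it passed the test in both fits. Against day 2 the day 4 difference was -1.95 ± 0.49 (adjusted p = 0.0103). The Ankrd52 gene overlaps Slc39a5 on the opposite strand, and the strand setting of the counting is not given in the sources used here.

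Slc39a8 (chr3:135825279-135888572, plus strand) encodes ZIP8, an importer of zinc, manganese and cadmium. Its levels were 30.4, 33.0 and 33.9 CPM at day 0, 30.5, 52.1 and 34.6 CPM at day 2, 13.5, 12.1 and 15.2 CPM at day 4, and 19.3, 12.4 and 14.9 CPM at day 6. Days 4 and 6 lay wholly below days 0 and 2. The means were 32.5 ± 1.80, 39.0 ± 11.5, 13.6 ± 1.54 and 15.5 ± 3.48 CPM (SD, n = 3). Slc39a8 fell by 1.20 ± 0.21 at day 4 (adjusted p = 0.00117) and by 1.04 ± 0.21 at day 6 (adjusted p = 0.0025) against day 0, and by 1.42 ± 0.21 from day 2 to day 4 (adjusted p = 0.000343), on the log2 scale in limma.

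Slc39a14 (chr14:70303469-70351425, minus strand) encodes ZIP14, the closest relative of ZIP8, which carries zinc, manganese and iron not bound to transferrin. It was at 39.8, 51.0 and 43.4 CPM at day 0, at 49.8, 59.5 and 51.6 CPM at day 2, at 78.8, 95.6 and 93.7 CPM at day 4 and at 264, 513 and 115 CPM at day 6. Days 4 and 6 were each wholly above the days before them. At day 6 it was 2.46 ± 0.39 higher than at day 0 (adjusted p = 0.00059), a mean of 297 ± 201 against 44.7 ± 5.71 CPM, or 6.65 times. At day 4 the mean of 89.4 ± 9.20 CPM was 2.00 times that of day 0, but the difference of 0.99 ± 0.39 missed the threshold in limma (adjusted p = 0.0735). It passed without day 6 replicate 2 (adjusted p = 0.00685), without day 6 replicate 3 (0.00383) and in a fit of the day 0 and day 4 libraries alone (0.00106). The difference of 1.48 ± 0.39 between days 6 and 4 missed it as well (adjusted p = 0.0717), and passed with edgeR (0.0348), with DESeq2 (0.000328) and, at 2.04, without day 6 replicate 3 (0.000524).

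Set against each other within a library, Slc39a14 over Slc39a8 was 1.38 ± 0.146 at day 0 and 1.42 ± 0.253 at day 2 in CPM. It was 6.63 ± 1.11 at day 4 and 20.9 ± 17.9 at day 6 (SD, n = 3). The exact two-sided permutation test against day 0 gave p = 0.9 at day 2 and p = 0.1, the smallest it allows, at days 4 and 6. This ratio too was chosen after the values were seen. The ratio was 1.14 to 1.63 in the day 2 libraries and 5.82 to 7.90 in those of day 4, which were not compared by a test.

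**Figure D3:**
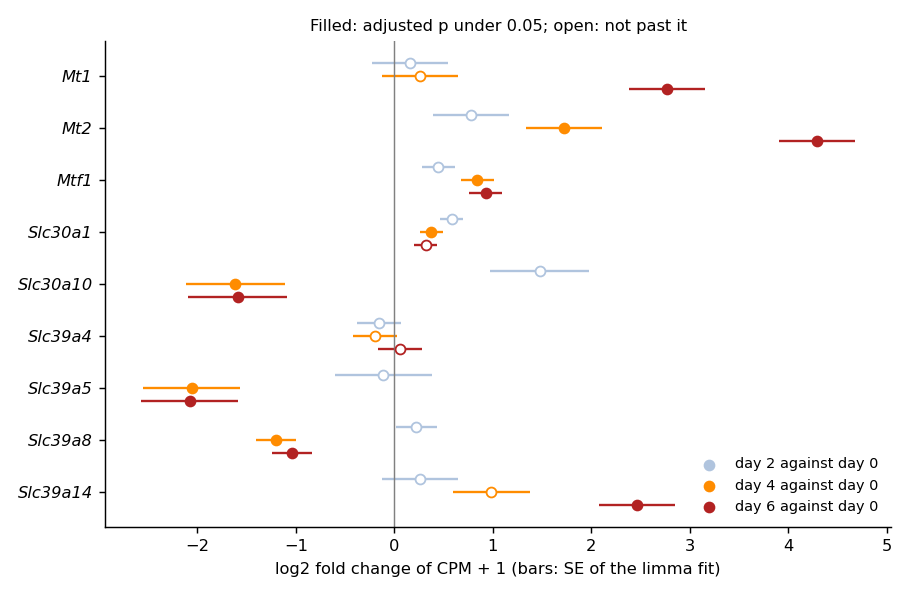
Differences from day 0 on the log2(CPM + 1) scale for each gene at days 2, 4 and 6, with the SE of the limma fit as bars and filled points for adjusted p under 0.05. No point is filled at day 2, 6 are at day 4 and 7 at day 6, with Mt2 at day 6 farthest from 0 at 4.29.

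Counted together, none of the 9 genes passed the limma test at day 2 against day 0, where 0.321% of all tested genes did. At an unadjusted p under 0.05 there were 3, edgeR called 0 and DESeq2 called 2 (Slc30a1 and Slc30a10, both higher). The 0.321% is the share of limma calls after adjustment and does not apply to these counts. Over all genes DESeq2 made more calls at day 2 than limma did, as the closing section gives. At day 4 there were 6 of 9 called, 3 higher (Mt2, Mtf1, Slc30a1) and 3 lower (Slc30a10, Slc39a5, Slc39a8), beside 33.2% of all genes (21.2% higher, 12% lower). At day 6 there were 7 of 9, 4 higher (Mt1, Mt2, Mtf1, Slc39a14) and 3 lower (the same 3 as at day 4), beside 35.9% of all genes (23.5% higher, 12.4% lower). The median log2 difference of the 9 was 0.26 at day 4 and 0.32 at day 6, beside 0.13 and 0.14 for all genes. Between days 2 and 4 the 3 lower genes were again called, beside 34% of all genes called and 12.9% called lower. Between days 4 and 6 Mt1 and Mt2 were called higher, beside 2.85% of all genes called and 1.9% called higher. Over the 4 days 8 of 9 passed the F test, beside 43%. Libraries did not overlap between days 2 and 0 for 4 members (30.7% of all genes), between days 4 and 0 for 8 (54%) and between days 6 and 0 for 8 (41%). The comparisons with day 0 share its 3 libraries.

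Levels between genes were compared per length, as CPM per kilobase of annotated exon. At day 0 the order was Slc39a4 at 70.4 ± 11.0, Mt1 at 54.6 ± 9.09, Mt2 at 37.6 ± 5.25, Slc39a5 at 37.4 ± 9.74 and Slc30a1 at 7.45 ± 1.11 (SD, n = 3). Slc39a14 at 4.24 ± 0.541, Slc39a8 at 4.23 ± 0.234, Mtf1 at 2.84 ± 0.399 and Slc30a10 at 0.507 ± 0.0957 followed. Slc39a4 and Mt1, Mt2 and Slc39a5, and Slc39a14 and Slc39a8 did not differ beyond their spread. At day 6 Mt2 led at 894 ± 527 and Mt1 was next at 434 ± 243, the 2 overlapping within their SD, ahead of Slc39a4 at 74.9 ± 24.1 and Slc39a14 at 28.2 ± 19.0. Slc39a5 at 10.8 ± 9.19, Slc30a1 at 9.27 ± 0.365, Mtf1 at 5.55 ± 1.11, Slc39a8 at 2.02 ± 0.453 and Slc30a10 at 0.0534 ± 0.0263 made up the rest. The Mt1 value depends on the length used, because the exons of its 3 transcripts join to 1246 bases while its principal transcript has 549. Per length of that transcript Mt1 would stand higher. Its place beside Slc39a4 at day 0 and Mt2 at day 6 therefore rests on this choice.

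Relative to their mean, the day 6 libraries differed more among themselves than those of the other 3 days for 6 members, Mt1, Mt2, Slc39a14, Slc39a5, Slc39a4 and Mtf1. Mt1, Mt2 and Slc39a14 were highest in replicate 2 and lowest in replicate 3, whereas Slc39a4, Slc39a5 and Mtf1 were highest in replicate 3 and lowest in replicate 2. Without day 6 replicate 3 the day 6 difference from day 0 was 3.37 for Mt1 (adjusted p = 8.61e-08), 4.89 for Mt2 (1.03e-08) and 3.02 for Slc39a14 (2.6e-06) in limma. Without day 6 replicate 2 these differences were 2.40 (adjusted p = 0.000387), 3.87 (8.9e-06) and 1.95 (0.00025). All 3 genes were called in each of the 12 fits that left out 1 library.

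Some lists of cell type markers followed the order of these values over the day 6 libraries, and others did not. In bulk tissue fewer cells of a type and less RNA per cell cannot be told apart. The mean log2(CPM + 1) over 12 epithelial markers was 8.75 in day 6 replicate 3, 8.19 in replicate 1 and 7.11 in replicate 2, and over 10 goblet cell markers it was 8.54, 7.71 and 6.77 in that order. Absorptive colonocyte markers fell in the same order, at 8.33, 7.67 and 7.57. The 10 fibroblast markers ran the other way at 7.74, 8.39 and 8.98, as did the 10 smooth muscle markers at 8.00, 8.61 and 9.37 and the 10 monocyte and macrophage markers at 6.17, 6.90 and 7.07. Endothelial markers (4.96, 5.71 and 6.53) and enteric neuron and glia markers (3.51, 4.32 and 5.21) rose in that order too. Other lists did not follow that order. The 10 neutrophil markers stood at 4.89, 6.36 and 6.16 and the T cell markers at 2.98, 2.47 and 3.43. B cell and plasma cell markers were at 2.60, 2.53 and 3.24, and skeletal muscle markers at 0.715, 3.17 and 0.760. The part of these shifts in the spread of the zinc genes was not tested.

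**Figure D4:**
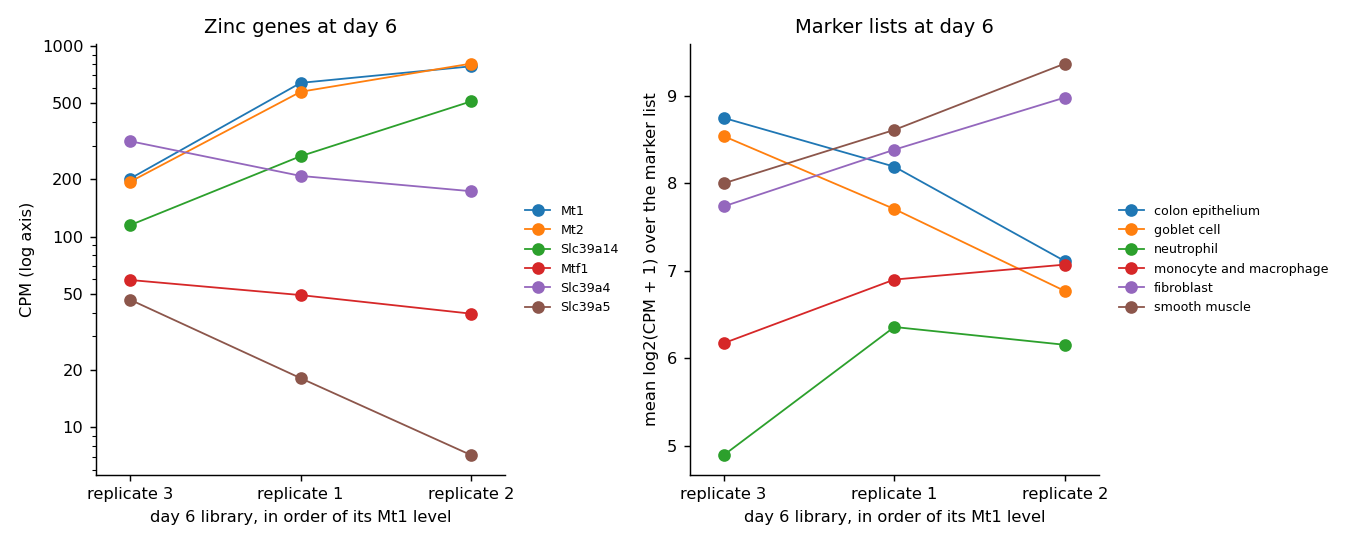
Left, CPM of 6 zinc genes in the day 6 libraries on a log axis; right, the mean log2(CPM + 1) of 6 marker lists in the same libraries, ordered by Mt1 with lines only to guide the eye. Mt1, Mt2 and Slc39a14 are lowest and Slc39a4, Slc39a5 and the epithelial and goblet lists highest in replicate 3.

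Marker lists also moved with the day. Of the 12 epithelial markers 2 were lower at day 4 and 5 at day 6 against day 0, none was higher, and their summed level on days 0, 4 and 6 was 12417 to 17711, 10683 to 12483 and 5059 to 15144 CPM. Of 9 absorptive colonocyte markers 5 were lower at day 4 and 4 at day 6, at sums of 4193 to 7310, 2314 to 3758 and 2831 to 4861 CPM. Of 10 goblet markers 4 and 10 were lower, with sums of 34558 to 79201, 15285 to 16248 and 3368 to 8403 CPM. Slc39a5, Slc39a8 and Slc30a10 were lower on the same days, as were 12% of all genes at day 4 and 12.4% at day 6, and Slc39a4 was not called on either. All 10 neutrophil markers were higher at both days, their sum going from 9.999 to 13.5 CPM at day 0 to 286 to 380 and 354 to 1104 CPM. Of 10 monocyte and macrophage markers 8 and 10 were higher (281 to 332, then 732 to 998 and 986 to 1801 CPM), and of 10 fibroblast markers 7 and 9 (1803 to 2582, then 3446 to 5829 and 5229 to 12021 CPM). Of 10 smooth muscle markers 3 and 5 were lower, with sums of 9275 to 11975, 4665 to 7549 and 3436 to 8792 CPM, and of 10 endothelial markers 3 and 6 were higher (269 to 306, then 401 to 619 and 449 to 1338 CPM). Of 8 T cell markers 1 was higher at day 4 and 8 at day 6 (sums of 17.3 to 19.6, 24.1 to 27.0 and 41.2 to 87.1 CPM on days 0, 4 and 6). Of the 7 tested B cell and plasma cell markers 4 were lower at day 4, and at day 6 there were 4 lower and 2 higher. The 8 listed summed to 1111 to 1220, 209 to 266 and 253 to 574 CPM on days 0, 4 and 6. Between days 4 and 6, 7 of the 8 T cell, 5 of the 10 neutrophil and 3 of 7 tested B cell and plasma cell markers were higher. In that comparison 1 was higher in each of the monocyte and macrophage and the fibroblast lists. In each of the epithelial and goblet lists 1 was lower. These counts stand beside 33.2% of all genes called at day 4, 35.9% at day 6 and 2.85% between days 4 and 6. No marker of these lists was at 0 in all libraries of days 0, 4 or 6, and their part in the results was not tested.

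Signals known to act on metallothionein genes were listed as well. Of 9 genes that report interleukin 6 family signalling, none was called at day 2 and all 9 were higher at days 4 and 6, with summed levels on days 0, 4 and 6 of 245 to 327, 1085 to 1255 and 912 to 2230 CPM. Between days 4 and 6 none of them was called (2 at an unadjusted p under 0.05). Of 9 glucocorticoid response genes 4 were higher at day 2, 2 were higher and 2 lower at day 4, and 7 were higher at day 6, and 5 were higher at day 6 than at day 4. Of 8 oxidative stress genes 3 were higher at day 4, and 4 were higher and 1 lower at day 6, and 1 was higher at day 6 than at day 4. Over all genes 0.321%, 33.2% and 35.9% were called at days 2, 4 and 6 against day 0, and 2.85% between days 4 and 6. The 3 of 8 oxidative stress genes at day 4 are near the 33.2% of that day. The part of these lists in the changes of Mt1, Mt2 or Slc39a14 was not tested.

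Of the 22 other genes for metallothioneins, ZnT and ZIP proteins and zinc sensing that were listed, 16 passed the filter. None was called at day 2 (2 at an unadjusted p under 0.05), 4 were called at day 4 (2 higher, 2 lower) and 3 at day 6 (2 higher, 1 lower), beside 33.2% and 35.9% of all genes. With DESeq2 the counts were 8 at day 4 and 5 at day 6. Those shares of all genes are from limma, so the DESeq2 counts cannot be read against them. Their median log2 difference was -0.05 at day 4 and -0.04 at day 6, beside 0.13 and 0.14 for all genes.

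Slc39a10, an importer of the plasma membrane, rose from 15.1 ± 3.08 CPM at day 0 to 37.7 ± 4.14 at day 4 and 33.6 ± 7.40 at day 6 (SD, n = 3), by 1.28 ± 0.20 (adjusted p = 0.000577) and 1.09 ± 0.20 (adjusted p = 0.00133) in limma. Slc39a6, its closest relative, was at 9.02 ± 2.72, 20.8 ± 5.56 and 29.7 ± 14.1 CPM on those days, higher by 1.13 ± 0.33 (adjusted p = 0.0206) and 1.54 ± 0.33 (adjusted p = 0.00375). The day 4 call of Slc39a6 was lost without day 0 replicate 1 (adjusted p = 0.0832) or day 4 replicate 2 (0.0843). Slc39a11 fell from 207 ± 37.0 to 95.5 ± 1.69 and 85.9 ± 41.9 CPM, by 1.09 ± 0.30 (adjusted p = 0.0156) and 1.37 ± 0.30 (adjusted p = 0.00437), and its day 4 call was lost without day 0 replicate 1 (0.0615). Both directions were thus seen among the importers outside the 9 genes as well.

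Mt3, the metallothionein next to Mt2 and best known from brain, went the other way from Mt2 at day 4. Its levels were 16.2, 7.35 and 10.6 CPM at day 0, 7.39, 8.19 and 7.22 CPM at day 2, 1.61, 2.64 and 3.04 CPM at day 4, and 18.2, 37.9 and 5.21 CPM at day 6. It fell by 1.81 ± 0.52 from day 0 to day 4 (adjusted p = 0.0202), the day on which Mt2 was 3.40 times its day 0 mean, and the call was lost with a pseudocount of 5 (0.053) and when replicate 1 (0.0807) or 3 (0.0518) of day 0 or replicate 1 (0.0691) of day 4 was left out. The difference between days 6 and 4 was 2.31 ± 0.52 (adjusted p = 0.0395), a call lost in 15 of 23 alternatives, including every fit without 1 library except that without day 6 replicate 3, with adjusted p from 0.0508 to 0.253. At day 6 it was, like Mt1 and Mt2, highest in replicate 2 and lowest in replicate 3. Mt4 was below the filter, with 0 to 8 reads in each library before day 6 and 48, 24 and 39 reads there. Among exporters, Slc30a4 was lower at day 4 than at day 2 (63.1 against 115 CPM, -0.85 ± 0.14, adjusted p = 0.000988), as was the importer Slc39a9 (121 against 198 CPM, -0.71 ± 0.17, adjusted p = 0.0088). These last 2 were named after their values were seen.

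**Figure D5:**
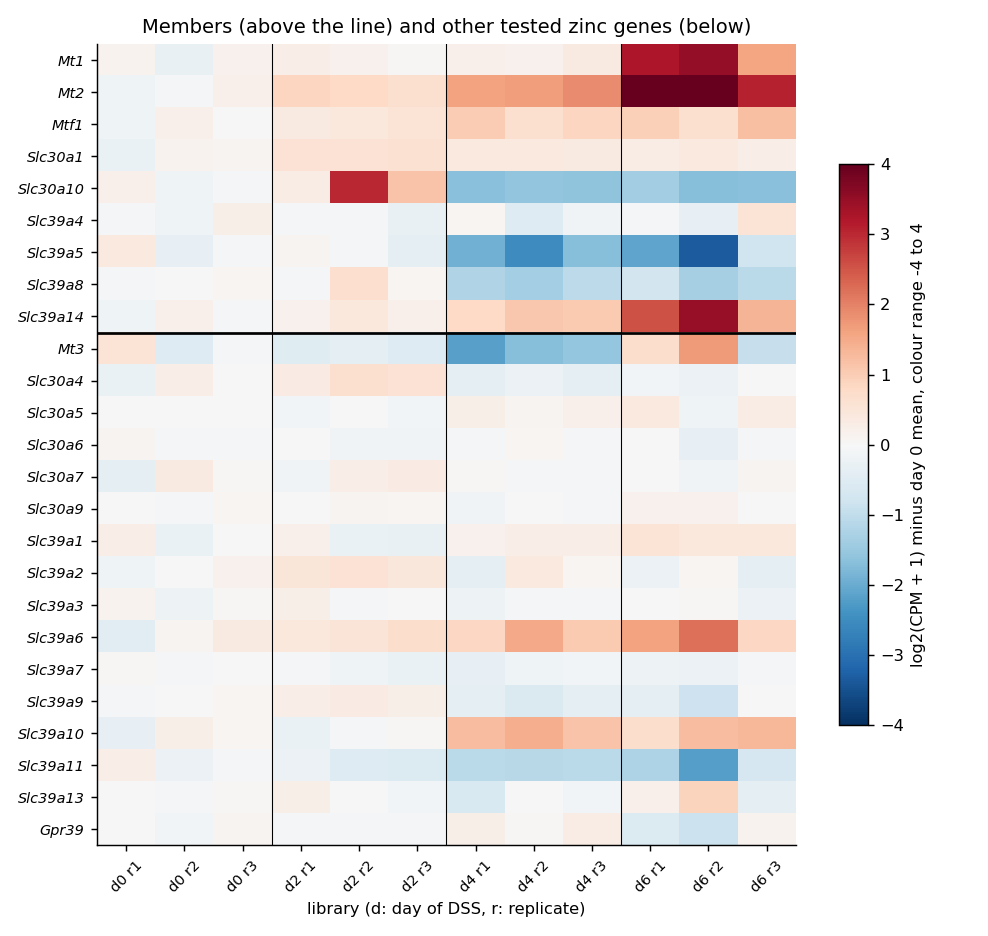
Difference of log2(CPM + 1) from the day 0 mean for the 9 genes (above the line) and the 16 other tested zinc genes (below) in each of the 12 libraries, on a colour scale from -4 to 4 that clips higher values. Mt2 darkens from day 2 on, Mt1 and Slc39a14 at day 6, and most of the lower block stays pale.

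Other metals share these carriers. Of 13 listed copper genes 11 were tested, and at both day 4 and day 6 there were 4 higher and 1 lower (Ccs, the copper chaperone for superoxide dismutase), beside 33.2% and 35.9% of all genes called. The ferroxidase ceruloplasmin gene Cp rose from 9.74 ± 0.612 to 59.3 ± 17.1 and 221 ± 137 CPM, by 2.45 ± 0.39 (adjusted p = 0.000766) and 4.15 ± 0.39 (adjusted p = 1.47e-05). Steap4, a metalloreductase for iron and copper, rose from 9.45 ± 3.22 to 80.9 ± 4.02 and 138 ± 70.6 CPM, by 3.01 ± 0.33 (adjusted p = 6.15e-05) and 3.62 ± 0.33 (adjusted p = 1.18e-05). The copper transporter genes Slc31a2 and Atp7a were higher at day 6 by 1.52 (adjusted p = 0.00417) and 1.01 (adjusted p = 0.00898). At day 4 they were called too (adjusted p = 0.0171 and 0.0359). The day 4 call of Slc31a2 did not pass when replicate 1 (0.0693) or 3 (0.0645) of day 0 or replicate 2 (0.067) of day 4 was left out. That of Atp7a was lost in 10 of 23 alternatives, with adjusted p up to 0.137, among them the fits without day 0 replicate 1 or 3, day 2 replicate 2, or day 4 replicate 1 or 2, and those with median-of-ratios scaling, quantile normalization and edgeR.

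Of 10 manganese and iron genes 3 were higher at day 4, near the 33.2% called over all genes, and 6 were higher and 1 lower at day 6, beside 35.9%. Slc11a1, the phagosomal exporter of manganese and iron, rose from 5.35 ± 0.611 to 23.2 ± 3.60 and 63.3 ± 20.7 CPM (3.28 ± 0.27 at day 6, adjusted p = 5.4e-06), and Sod2, the manganese-dependent superoxide dismutase of mitochondria, from 75.4 ± 5.02 to 134 ± 7.06 and 231 ± 74.9 CPM (1.55 ± 0.20 at day 6, adjusted p = 0.000138). Trf, which encodes transferrin, was higher at day 6 by 1.65 (adjusted p = 0.00131). The lower gene was Atp2c2, a calcium and manganese pump, at 87.2 ± 23.9 CPM at day 0 and 18.3 ± 12.7 at day 6 (-2.37, adjusted p = 0.000605). The genes of calprotectin, the neutrophil protein that binds zinc and manganese outside cells, went from 0.0713 to 21.0 and 124 CPM (S100a8) and from 0.134 to 44.1 and 144 CPM (S100a9) as means of days 0, 4 and 6. Both were called at both days, as were all 10 of the neutrophil markers, among which they were counted.

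The genes whose course over the 12 libraries was most like each member were found by Pearson's r of log2(CPM + 1), and since libraries share their days these values describe the day pattern and carry no test. For Mt2 they were Rnf149, Slc10a6 and Ifnar1 (r = 0.989, 0.988 and 0.988, Spearman's rho 0.979 each), and for Mt1 they were Ctla2b, Serpina3k and Ngp (r = 0.987, 0.984 and 0.983, rho 0.685, 0.805 and 0.841). For Slc39a14 they were Tmem100, Tnfrsf26 and Kcnj15 (r = 0.994, 0.984 and 0.983), and for Mtf1 Irak4, Smad4 and Cpne2 (r = 0.963, 0.961 and 0.955). Slc39a5 was nearest to Gstt3, Rfk and Ethe1 (r = 0.991, 0.991 and 0.99), and Slc39a8 to Tex9, Ppara and Ppifos (r = 0.971, 0.971 and 0.967). Slc30a1 was nearest to Cttnbp2nl, Senp6 and Spred2 (r = 0.959, 0.949 and 0.947), Slc30a10 to Abhd3, Insrr and Nceh1 (r = 0.966, 0.965 and 0.954) and Slc39a4 to Dazap2, Nlrp1b and Lypla1 (r = 0.923, 0.903 and 0.901). No gene appeared in the nearest 3 of more than 1 member. Of the genes nearest to Mt1, Serpina3k and Ngp averaged at most 0.25 CPM on days 0, 2 and 4. At day 6 they averaged 5.28 and 38.7 CPM, so their r rests mainly on the day 6 libraries.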

How the data were processed

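The authors deposited a table of CPM for 25904 symbols in 12 libraries, with no further scaling seen in the values. The submitters' processing notes name the mm10 build, HISAT2 2.2.1 and featureCounts 2.0.1; libraries were stranded, poly(A)-selected and read as 150-base pairs, per the labels' protocols. Which annotation and strand setting the counting used is not given, and overlapping genes may share reads. Columns summed to 992026 to 998040 CPM, leaving 0.196% to 0.797% of reads outside the listed genes. Whole reads were recovered: 100% of values lay within 0.1 of a whole number of reads.

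The 15246 genes at 1 CPM or more in 3 or more libraries were tested with limma 3.58.1 (R 4.3.3) on log2(CPM + 1), fitting 4 day means over 12 libraries with trend and robust moderation and Benjamini-Hochberg adjustment over all of them at 0.05. Fold changes on this scale understate low genes. Alternatives, 23 in all, included edgeR 4.0.16 and DESeq2 1.42.0 on the recovered reads. Single ratios used exact permutation tests. The members and lists were chosen with earlier results of these data known. Named beyond the 9 members were up to 10 called genes of the other zinc list and up to 4 per further metal list, by size of change at day 4 or 6, and the 3 nearest genes of each member. Coordinates are from GENCODE M21 (GRCm38), and promoter windows from RefSeq.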

Additional observations from a re-analysis of the deposited data

How the results depend on the processing

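Of the members' calls, Mt1 at day 6, Mt2, Mtf1, Slc39a5 and Slc39a8 at days 4 and 6, and Slc39a14 at day 6, each against day 0, held in all 23 alternatives, and that of Slc30a10 between days 4 and 2 in all 22 that tested it, the filter on a mean of 5 CPM leaving it out. Members called at day 2 numbered 2 with DESeq2, 1 in a fit of the 2 days alone and 0 to 1 without 1 library (1 without day 6 replicate 2). At day 4 against day 0 they ranged from 4 to 7 without 1 library, and at day 6 against day 0 from 6 to 7. At day 4 against day 2 they numbered 5 with DESeq2, 7 in a fit of the 2 days and 3 to 6 without 1 library (6 without day 6 replicate 2, 5 without day 6 replicate 3). At day 6 against day 4 they numbered 0 in a fit of the 2 days and 2 to 3 without 1 library. The F test called 8 in every fit without 1 library.

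Other zinc genes called at day 4 against day 0 numbered 7 with quantile normalization, 8 with DESeq2 and 2 to 5 without 1 library (2 without day 0 replicate 1). At day 6 against day 0 they were 5 with DESeq2 and 3 to 6 without 1 library (6 without day 6 replicate 3). At day 4 against day 2 they were 5 with quantile normalization, 5 with DESeq2, 7 in a fit of the 2 days and 3 to 6 without 1 library. At day 6 against day 4 they were 0 with a pseudocount of 5, with the mean filter and in a fit of the 2 days, and 0 to 3 without 1 library (3 without day 6 replicate 3).

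Over all genes, day 2 against day 0 gave 49 calls, but 30 with the mean filter, 546 with DESeq2, 382 in a fit of the 2 days and 13 to 557 without 1 library (557 without day 6 replicate 2). Calls without 1 library ranged from 3576 to 6758 at day 4 and from 4016 to 6950 at day 6 against day 0, where the fit of the 2 days gave 2885, and from 3864 to 6535 at day 4 against day 2. Day 6 against day 4 gave 434, but 258 with the mean filter, 1344 with DESeq2, 0 in a fit of the 2 days and 115 to 2250 without 1 library (2250 without day 6 replicate 3). In limma the days share an estimate of the spread, and leaving out a day 6 library does not alter the means of days 0 and 2. Calls between those days can then change only through that estimate and the number of libraries behind it. The cause of the other differences was not tested.

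Signs turned only for members not called. Slc39a4 at day 6 against day 0 was -0.11 (median-of-ratios scaling), -0.0488 (quantiles made equal), -0.0563 (edgeR), -0.0615 (DESeq2) and -0.19 to 0.24 without 1 library, and at day 4 against day 2 it was -0.18 to 0.11 without 1 library. Slc39a5 at day 6 against day 4 was 0.0324 with a pseudocount of 5, 0.33 with edgeR, 0.32 with DESeq2 and -0.66 to 0.61 without 1 library, and at day 2 against day 0 it was -0.28 to 0.0819. Mtf1 and Slc30a10 at day 6 against day 4 were -0.0528 to 0.23 and -0.0681 to 0.0816.

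Deviations from the day means of same-numbered libraries correlated at r from -0.21 to 0.64, highest for replicate 2 of days 4 and 6, with 7 of 18 pairs over 0.1. Since not every pair was over 0.1 and the labels name nothing shared, the numbers were not taken to pair the libraries. With the replicate block, 0, 7 and 7 members were called at days 2, 4 and 6 against day 0, 3 at day 4 against day 2 and 2 at day 6 against day 4. The block added Slc39a14 at day 4 (adjusted p = 0.0489). Other zinc genes with the block numbered 0, 4 and 4 at days 2, 4 and 6 and 3 and 1 in the later comparisons. All genes numbered 60, 5427, 5794, 5419 and 466. Leaving out 1 library moved no called member's sign. Depth limits Slc30a10 at days 4 and 6, with 8 or 9 reads in its lowest libraries.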
